A study of Mus musculus with 36 samples.

Results

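The comparison described here is high fat diet against normal chow at Zeitgeber time 16 (ZT16), 4 h into the dark phase, when mice are active and feed. It was chosen by the harvest time in the labels and holds 6 of the 36 liver arrays of the study, 3 of mice on the high fat diet and 3 of mice on chow. The high fat diet group were C57BL/6J mice of 16 weeks of age that had eaten a diet with 60% of its calories from fat for 10 weeks. The chow group were C57BL/6J mice of the same age on normal chow. All groups fed ad libitum in a 12-h light and 12-h dark cycle, and livers were also taken at ZT0, ZT4, ZT8, ZT12 and ZT20. Neither the sex of the mice nor the composition of the chow is given in the labels. The labels give 3 numbered samples to a group and mention animals, but not whether each sample came from a separate animal. The p-values therefore speak only of the variation among the samples at hand, which could be technical.

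The liver changes its work over the day. In the dark phase it takes up dietary nutrients, makes and secretes lipoproteins and plasma proteins and fills its glycogen stores, while in the light phase it turns to oxidation of fat. The core clock, a feedback loop of activators (Arntl, Clock) and repressors (Per, Cry and Nr1d genes), and the time of feeding both set this programme. Proteins bound for secretion fold in the endoplasmic reticulum (ER), whose chaperones are induced together when the folding load is high, a reaction known as the unfolded protein response.

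RNA was measured on whole-transcript gene arrays. Levels are given as log2(intensity + 16) of a gene's brightest probe set, differences as high fat diet minus chow on that scale, which understates the change of dim genes. A gene was called when its Benjamini-Hochberg adjusted p in limma was under 0.05, over 13956 genes tested. The median difference over all of them at ZT16 was 0.02, and the median standard error (SE) of a difference was 0.11. The hepatocyte markers were present in both groups, with summed linear intensities of 95166 to 100675 in high fat diet livers and 96185 to 101630 in chow livers. Krt19 and Epcam of bile ducts and Adipoq and Lep of fat tissue lay under the intensity filter. In chow livers Per2 was highest at ZT16 of the 6 times, Cry1 at ZT20, Dbp at ZT8 and Nr1d1 at ZT4.

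Chow replicate 1 stood apart from the other arrays of ZT16. It correlated at 0.986 at best with its own group but at 0.988 with a high fat diet array, and its array quality weight was 0.409. The high fat diet arrays correlated with each other at 0.991 to 0.995, the chow arrays at 0.985 to 0.991. Summed stellate cell markers were 11981 to 12638 in high fat diet livers, against 14026, 10927 and 9926 in chow replicates 1, 2 and 3. Summed markers of sinusoidal endothelium were 9059 to 10530 in high fat diet livers, against 10699, 8824 and 7978 in chow replicates 1, 2 and 3, so that chow replicate 1 was the highest of the 6 in both. Calls that are lost without that array are named as such below.

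At ZT16, 310 of the 13956 genes were called (2.22%), 146 higher on the high fat diet (1.05%) and 164 lower (1.18%). Of the called genes 16 were at least 2-fold higher and 15 at least 2-fold lower, and the median size of their differences was 0.51 (log2). Fatty acid oxidation, lipid droplet and triglyceride-handling genes were among those that rose, and drug-metabolising enzymes, glutathione transferases and ER chaperones among those that fell. Samples of the diets did not overlap for 306 of the 310. Over all genes tested, 9.64% lay wholly above and 8.32% wholly below chow. The split between higher and lower calls, 47.1% higher, was 46.2% after quantile normalization (172 higher and 200 lower) and 33.0% after median centring (63 higher and 128 lower). Without chow replicate 1, 151 genes were higher and 122 lower, 214 of the 310 remained called and all 310 kept their sign. For the 306 without overlap, leaving out 1 array could not change the sign. Other arrays moved the counts further. They were 33 higher and 63 lower without high fat diet replicate 2, 56 and 102 without high fat diet replicate 3, 123 and 84 without high fat diet replicate 1, 58 and 69 without chow replicate 2, and 69 and 111 without chow replicate 3.

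The highest difference was that of Cyp2b9, a cytochrome P450 of drug and steroid metabolism that female mouse liver expresses more than male. It stood at 11.36, 11.35 and 10.26 in high fat diet livers, against 6.69, 7.04 and 6.06 in chow livers. The groups were far apart, and Cyp2b9 was 20.9-fold higher (difference 4.39, SE 0.95, adjusted p = 0.00981). That call was lost without chow replicate 3 and without high fat diet replicate 2. Stap1, an adaptor protein of immune signalling, read 8.04, 8.10 and 8.04 on the high fat diet, against 6.21, 5.39 and 5.30 on chow, with no overlap (difference 2.43, SE 0.33, adjusted p = 4.69e-05). The chow mean of Stap1 (5.63) lay under the level of the intensity filter (6.11), which was set on the mean over all 36 arrays, so background limits how exactly the size of its difference is known. Cyp17a1, the 17-hydroxylase of steroid synthesis, read 10.71, 11.05 and 10.56 on the high fat diet and 9.05, 8.48 and 8.43 on chow. Its 4.35-fold rise had an SE of 0.39 on the log2 scale (adjusted p = 0.00178). Mtnr1a, a melatonin receptor, read 7.93, 8.02 and 8.02 on the high fat diet, against 6.11, 6.19 and 5.81 on chow (difference 1.95, SE 0.17, adjusted p = 2.4e-08), and its chow mean of 6.04 was under the filter level too.

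Apoa4, which travels on triglyceride-rich lipoproteins, was higher by 1.85 (SE 0.25, adjusted p = 3.71e-05). Its levels were 11.94, 12.34 and 12.06 on the high fat diet, against 10.27, 10.51 and 10.00 on chow. Slc17a8, a vesicular glutamate transporter, differed by 1.88 (SE 0.31) and Gpc1, a cell surface heparan sulfate proteoglycan, by 1.12 (SE 0.17). Mfsd2a, a transporter of lysophosphatidylcholine, was higher by 1.73 (SE 0.43, adjusted p = 0.0255). In Mfsd2a the spread lay within chow, where the replicates read 10.38, 10.53 and 9.03, against 11.65, 11.78 and 11.69 on the high fat diet, and its call was lost when chow replicate 3 or any 1 of the high fat diet arrays was left out. Acnat2, a peroxisomal acyltransferase, was higher by 1.21 (SE 0.32), and its call was lost without chow replicate 1 (adjusted p = 0.125), as was that of 9030619P08Rik (difference 1.25, adjusted p = 0.0694). The unnamed transcripts 2010003K11Rik and 1810055G02Rik complete the 12 highest, with differences of 1.31 and 1.23, and 2010003K11Rik was lost when any 1 of the ZT16 arrays other than chow replicate 1 was left out.

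Among the 12 lowest differences were 6 cytochromes P450. Cyp2b10, the classic target of the nuclear receptor CAR, read 7.06, 6.57 and 6.46 in high fat diet livers, against 9.78, 10.15 and 10.57 in chow livers. It was 11.1-fold lower on the high fat diet (difference -3.47, SE 0.34, adjusted p = 9.9e-08). Cyp2b9 and Cyp2b10 are close relatives, and arrays of this kind may not fully separate their transcripts, though here they moved in opposite directions. Cyp2c55, another target of CAR and PXR, read 5.89, 5.82 and 5.95 on the high fat diet, against 8.17, 7.92 and 7.68 on chow (difference -2.03, SE 0.17, adjusted p = 5.74e-09). Cyp3a44 (difference -2.15, SE 0.28) and Cyp3a16 (difference -1.55, SE 0.23), similar in sequence to each other, also fell. Adgrf1, an adhesion receptor, fell by 2.51 (SE 0.46), and its high fat diet levels of 5.49, 5.32 and 6.36 lay well under the 8.07, 8.10 and 8.53 of chow. The high fat diet means of Cyp2c55 (5.89) and Adgrf1 (5.73) were under the filter level of 6.11, and the sizes of their differences are limited by background.

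Ces2a, a carboxylesterase that hydrolyses drugs and acylglycerols, stood at 9.67, 9.62 and 9.59 on the high fat diet, against 11.03, 11.17 and 10.85 on chow (difference -1.38, SE 0.13, adjusted p = 4.19e-08). Csad, the decarboxylase of taurine synthesis, fell by 1.71 (SE 0.30) although its chow levels were spread over 11.04, 10.51 and 9.35, against 8.26, 8.83 and 8.70 on the high fat diet. Slc13a2, a citrate and dicarboxylate transporter, fell by 1.26 (SE 0.21), and the transcript 1810064F22Rik by 1.14 (SE 0.24), to a high fat diet mean of 5.98 that was also under the filter level. Cyp4a12a and Cyp4a12b, fatty acid hydroxylases of male mouse liver, both differed by -1.24 and are treated with the time course below, since their sequences are too similar to count as separate results.

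**Figure D1:**
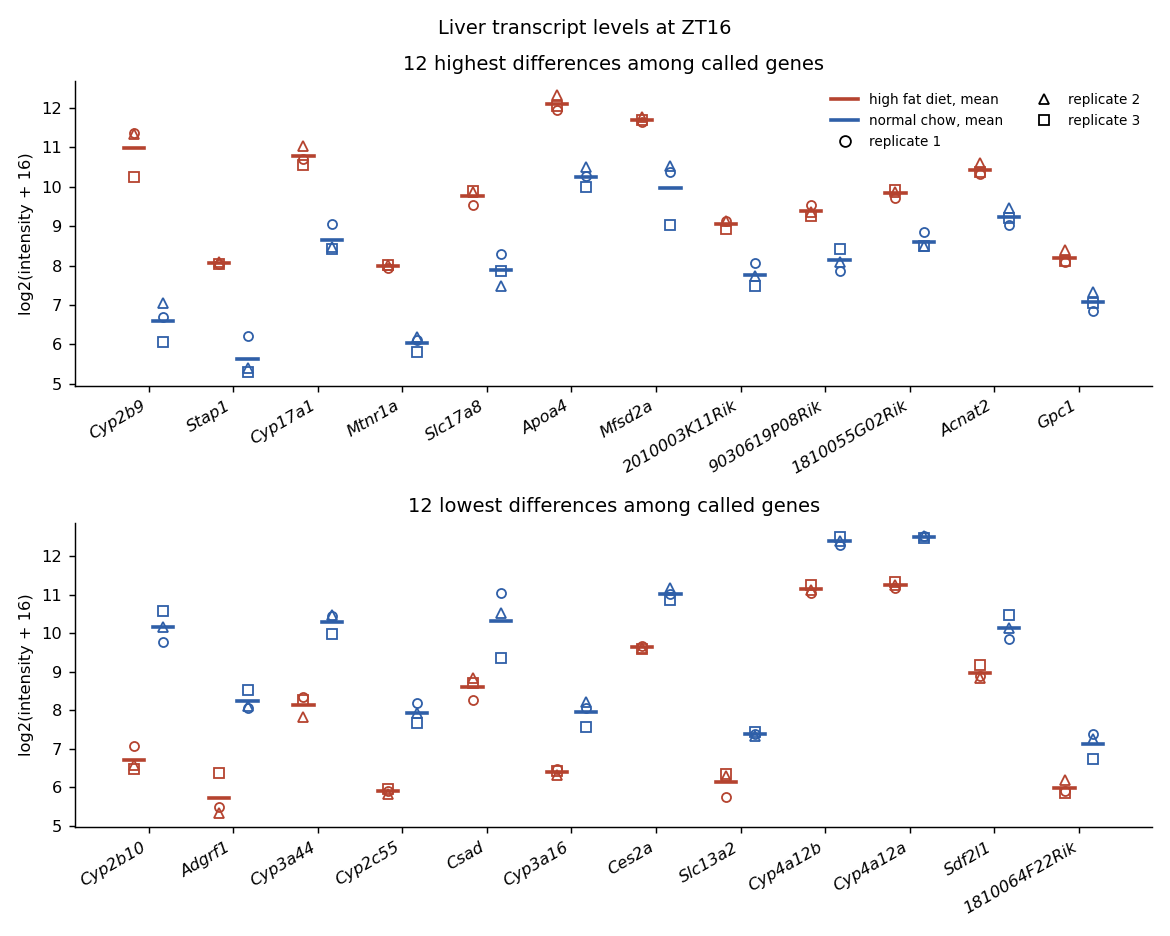
Levels at ZT16 of the 12 genes with the highest (top) and the 12 with the lowest (bottom) differences among called genes, as log2(intensity + 16), with each high fat diet array (red) left of each chow array (blue), a symbol per replicate and a bar at the group mean. No pair of groups overlaps in these 24 genes, and Cyp2b9 and Cyp2b10 show the widest gaps, 4.39 and -3.47.

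The gene lists showed the same features by function. Of 36 measured genes of fatty acid oxidation that PPARA regulates, 6 were higher and 0 lower, against 1.05% of all genes higher, and 33 of the 36 differences were above 0 (7852 of all 13956 genes were). Their median difference was 0.32, against 0.02 over all genes. The 6 were Cpt1a, the gate of mitochondrial fatty acid entry, Bdh1 of ketone body metabolism, the receptor Ppara itself, the dehydrogenase Acadm, the carnitine carrier Slc25a20 and Etfdh, which passes electrons from beta-oxidation to the respiratory chain. Cpt1a read 11.93, 12.10 and 12.04 on the high fat diet, against 11.63, 11.49 and 11.28 on chow (difference 0.56, SE 0.08, adjusted p = 0.000198). Bdh1 read 10.84, 10.84 and 10.78 on the high fat diet, against 10.36, 10.21 and 10.06 on chow (difference 0.61, SE 0.09, adjusted p = 0.000202). Neither gene's groups overlapped, and in both the high fat diet arrays were the tighter group. Ppara differed by 0.57, Acadm by 0.44, Slc25a20 by 0.38 and Etfdh by 0.34. The count was 5 without chow replicate 1, where Slc25a20 was lost (adjusted p = 0.0632), and 3 without high fat diet replicate 2, high fat diet replicate 3, chow replicate 2 or chow replicate 3.

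Of 20 measured PPARG and lipid droplet genes 3 were higher, against 1.05% of all genes, and 0 lower, with a median of 0.23. These were the droplet coat protein Plin2 (difference 0.54, SE 0.10), the intestinal-type fatty acid binding protein Fabp2 (0.98, SE 0.14) and Apoa4. Apoa4 also stands in the apolipoprotein list, where it was the 1 called member of 17, against 1.05% of all genes higher. Fabp2 read 10.95, 10.66 and 10.84 on the high fat diet, against 10.16, 9.83 and 9.52 on chow, and the groups were apart. The droplet protein Cidec, at 7.70, 7.85 and 7.14 on the high fat diet and 7.41, 6.74 and 5.82 on chow, overlapped between diets and was not called (difference 0.91, SE 0.49, adjusted p = 0.439).

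Fatty acid and triglyceride synthesis gave 5 higher of 27, against 1.05% of all genes, and 0 lower. Its median of 0.03 was close to that of all genes. The members that rose were those of desaturation and elongation, Fads2 (0.39), Elovl5 (0.83) and Elovl3 (0.62), with Insig2, an ER protein that retains the SREBP precursor (1.11), and Tkfc of fructose metabolism (0.43). Insig2 had the largest change, at 11.87, 12.09 and 12.09 on the high fat diet, against 10.82, 10.92 and 10.97 on chow (SE 0.14, adjusted p = 1.12e-05). The fatty acid synthase Fasn (-0.30, adjusted p = 0.656), the desaturase Scd1 (-0.07, adjusted p = 0.953) and the regulator Srebf1 (-0.15, adjusted p = 0.725), chosen for mention after their values were seen, were not called. Elovl3 was lost without chow replicate 1 (adjusted p = 0.0703). The count was 1 without high fat diet replicate 2 or 3, 2 without chow replicate 3 and 3 without chow replicate 2.

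Carbohydrate genes added a few calls. Gckr, the regulatory protein of glucokinase (0.44, SE 0.09), and Khk, the fructose kinase (0.61, SE 0.13), were the 2 called of 17 in glycolysis and glycogen, both higher, against 1.05% of all genes. That count was 4 without chow replicate 1, where Pklr and Ldha were called as well, 1 without high fat diet replicate 3 or chow replicate 2 and 0 without high fat diet replicate 2. The 17 include Pigq, which is not a glycolysis gene, was matched to the list symbol Gpi1 through a shared name and was not called. G6pc, the catalytic subunit of glucose-6-phosphatase, was the 1 called of 14 in gluconeogenesis, against 1.05% of all genes higher. It read 12.57, 12.79 and 12.81 on the high fat diet, against 12.06, 12.06 and 11.98 on chow, a difference of 0.69 (SE 0.14, adjusted p = 0.00696), which was lost without high fat diet replicate 2. In insulin signalling 1 of 26 rose and 1 fell, against 1.05% of all genes higher and 1.18% lower. Ppp1r3c, a glycogen-targeting subunit of protein phosphatase (0.88), rose, with groups that overlapped, and Igfbp2 (-0.89) fell. Both were lost without chow replicate 1 (adjusted p = 0.105 for Ppp1r3c and 0.0718 for Igfbp2), Igfbp2 also without any 1 of the other ZT16 arrays and Ppp1r3c without high fat diet replicate 2, high fat diet replicate 3 or chow replicate 2.

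Of 21 measured genes of cholesterol synthesis 2 were lower and 0 higher, against 1.18% of all genes lower, with a median of -0.32 and 20 of 21 differences below 0 (6104 of all 13956 genes were). These were the kinase Pmvk (-0.69, SE 0.19, adjusted p = 0.0468) and the feedback protein Insig1 (-0.56, SE 0.14, adjusted p = 0.0284). Insig1 read 11.89, 11.76 and 11.82 on the high fat diet, against 12.19, 12.59 and 12.37 on chow. Insig1 and Insig2, which share the role of holding SREBP in the ER, thus went in opposite directions. Pmvk was lost without chow replicate 1 (adjusted p = 0.0812), and neither was called when any 1 of the other 5 arrays of ZT16 was left out.

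The targets of the xenobiotic receptors CAR and PXR gave 1 higher (Cyp2b9) and 6 lower of 25, against 1.05% and 1.18% of all genes. Their median was -0.23. Besides Cyp2b10, Cyp2c55, Cyp3a44, Cyp3a16 and Ces2a, the sixth was Cyp3a11, the main CYP3A drug oxidase of mouse liver, at 11.56, 11.75 and 11.82 on the high fat diet, against 12.73, 12.69 and 12.48 on chow (difference -0.92, SE 0.18, adjusted p = 0.00392). The count of lower members was 6 whichever of the ZT16 arrays was left out. In the glutathione and NRF2 list 5 of 27 were lower, against 1.18% of all genes, and 0 higher, with a median of -0.16. Of these Gsta4, a glutathione transferase for lipid peroxidation products, read 10.13, 9.91 and 9.87 on the high fat diet, against 10.87, 11.06 and 10.67 on chow (difference -0.89, SE 0.16, adjusted p = 0.00147). The transferases Gstm4 (-0.59) and Gstp1 (-0.61), the glutathione reductase Gsr (-0.32) and the exporter Abcc4 (-0.54) were all lost without chow replicate 1, where the transferase Gstt2 was called beside Gsta4 (difference -0.56, adjusted p = 0.0371), for a count of 2. The count was 1 without high fat diet replicate 1 or chow replicate 2, and 2 without high fat diet replicate 2 or 3.

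Of 23 measured sex-biased or growth hormone dependent genes 3 were higher and 5 lower, against 1.05% and 1.18% of all genes. Female-biased members moved both ways, Cyp2b9 and Cyp17a1 up and Cyp3a16 and Cyp3a44 down, and so did male-biased ones, Elovl3 up and Cyp4a12a, Cyp4a12b and the glucuronosyltransferase Ugt2b38 (-0.63) down. Ugt2b38 was lost without chow replicate 1 (adjusted p = 0.0528), as was Elovl3. The count of higher members was 1 without high fat diet replicate 2 and 2 without high fat diet replicate 3, chow replicate 1 or chow replicate 3. Abcb4, the phospholipid exporter of bile, was the 1 called of 22 in bile acid synthesis and transport (0.40, SE 0.09), against 1.05% of all genes higher. It was lost without chow replicate 1 (adjusted p = 0.0503) and without high fat diet replicate 3. Amino acid catabolism gave 2 higher and 1 lower of 29, against 1.05% and 1.18% of all genes. Kynu of tryptophan breakdown (0.33) and the aminotransferase Agxt2 (0.31) were higher and Csad lower. Kynu and Agxt2 were lost without chow replicate 1 (adjusted p = 0.0721 for Kynu and 0.115 for Agxt2) and without high fat diet replicate 2 or 3.

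**Figure D2:**
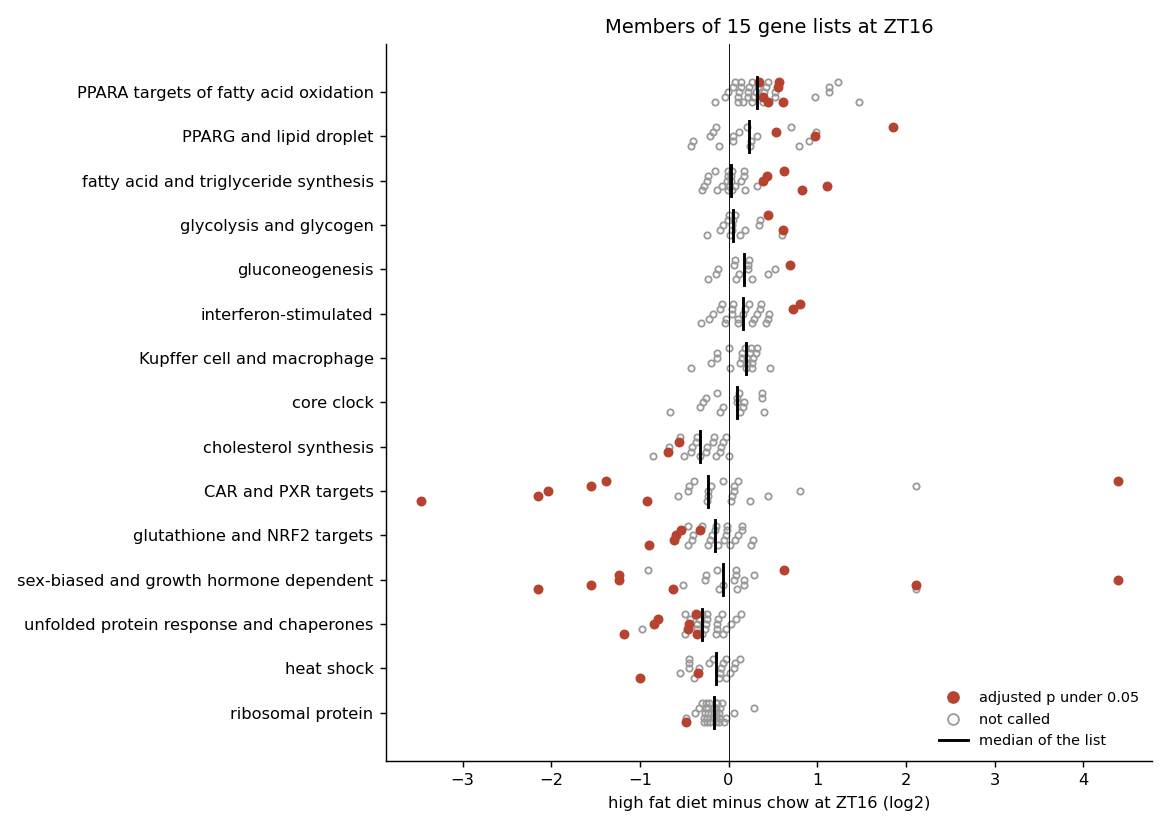
Differences at ZT16, high fat diet minus chow on the log2 scale, of every measured member of 15 gene lists, with called members filled in red, others open in grey and a black bar at each list's median. The PPARA targets sit mostly right of 0 (median 0.32) and the chaperones mostly left of it (median -0.30), while the core clock holds no called member.

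A group of ER genes was among those that fell. Of 30 measured genes of the unfolded protein response and its chaperones, 7 were lower and 0 higher, against 1.18% of all genes lower. Of the 30 differences 27 were below 0, and the median was -0.30. The 7 work at successive steps of secretory protein handling. Sec61a1 is the channel by which proteins enter the ER, Hspa5 (BiP) the main ER chaperone, Dnajb11 and Sdf2l1 its partners, Hyou1 its exchange factor, Pdia3 an isomerase of disulfide bonds, and Manf a small ER protein that binds Hspa5 and is also secreted.

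Sdf2l1 had the largest change, at 8.89, 8.84 and 9.17 on the high fat diet, against 9.83, 10.12 and 10.46 on chow, a 2.26-fold fall (difference -1.17, SE 0.29, adjusted p = 0.0245). Hyou1 averaged 9.94 ± 0.08 on the high fat diet, where its highest array read 10.00, against 10.78 ± 0.23 on chow (SD, n = 3), where its lowest read 10.54 (difference -0.84, SE 0.16, adjusted p = 0.00271). Manf read 9.54, 9.24 and 9.41 on the high fat diet, against 9.99, 10.20 and 10.39 on chow (difference -0.80, SE 0.13, adjusted p = 0.000291). In all 3 genes chow replicate 1 was the chow sample nearest to the high fat diet group, and no groups overlapped. Hspa5 read 11.98, 11.95 and 12.06 on the high fat diet, against 12.35, 12.52 and 12.50 on chow (difference -0.46, SE 0.11, adjusted p = 0.0233). Dnajb11 differed by -0.44, Sec61a1 by -0.37 and Pdia3 by -0.36. Pdia3 and Sec61a1 were lost without chow replicate 1 (adjusted p = 0.0819 for Pdia3 and 0.13 for Sec61a1), where the isomerase Pdia6 was called in their place (difference -0.59, adjusted p = 0.0155), for a count of 6. Without any other array of ZT16 the count was 2 to 4, being 2 without chow replicate 2 or high fat diet replicate 1. Hspa5 and Dnajb11 were lost in each of these 5 cases, while Manf and Hyou1 were called in every alternative tried. Sdf2l1 was lost in 5 of 51 alternatives, 4 of which left out 1 array, with an adjusted p of up to 0.133.

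The rest of the list was not called. Creld2 (-0.98, SE 0.31, adjusted p = 0.0974), Selenos (-0.36, adjusted p = 0.0721) and Pdia6 (-0.43, adjusted p = 0.0687) came nearest. The sensors and transcription factors of the response, Atf6 (-0.08), Ern1 (0.14) and Xbp1 (-0.14), overlapped between diets. So did the degradation genes Edem1 (0.02), Derl1 (-0.03) and Derl2 (0.09). Other degradation genes had differences below 0 without a call, namely Syvn1 (-0.49), Derl3 (-0.49), Herpud1 (-0.26) and Sel1l (-0.13). Targets of ATF4, which serve amino acid supply under stress, gave 1 higher of 23, against 1.05% of all genes, and 0 lower. The 1 was Atf5, a stress-induced transcription factor (0.71, SE 0.11).

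Promoters are shown for 3 of the lower members because they carry, or lack, the ER stress response element, a sequence through which chaperone genes are known to be induced together. They run from 250 bases before to 50 after the start in RefSeq (GRCm38.p6), 5′ to 3′ on the gene's strand. Hspa5 lies at chr2:34771840-34772139 (plus strand), Sdf2l1 at chr16:17132334-17132633 (minus strand) and Dnajb11 at chr16:22857595-22857894 (plus strand). Capitals mark the element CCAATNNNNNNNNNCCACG in Hspa5, which ends in CCACG, and CCACG on either strand (CGTGG on the strand printed) in the other promoters.
Hspa5: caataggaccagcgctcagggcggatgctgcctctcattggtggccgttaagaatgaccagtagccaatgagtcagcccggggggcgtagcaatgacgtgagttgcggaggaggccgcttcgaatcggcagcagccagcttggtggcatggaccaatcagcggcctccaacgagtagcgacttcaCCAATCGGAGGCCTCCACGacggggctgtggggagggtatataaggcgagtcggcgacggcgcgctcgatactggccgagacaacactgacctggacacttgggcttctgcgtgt
Sdf2l1: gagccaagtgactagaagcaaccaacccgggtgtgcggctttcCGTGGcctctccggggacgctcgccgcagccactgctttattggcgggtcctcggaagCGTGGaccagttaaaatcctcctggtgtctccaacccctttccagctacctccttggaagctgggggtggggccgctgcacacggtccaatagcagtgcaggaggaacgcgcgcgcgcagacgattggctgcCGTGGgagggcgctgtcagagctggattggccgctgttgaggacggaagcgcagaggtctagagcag
Dnajb11: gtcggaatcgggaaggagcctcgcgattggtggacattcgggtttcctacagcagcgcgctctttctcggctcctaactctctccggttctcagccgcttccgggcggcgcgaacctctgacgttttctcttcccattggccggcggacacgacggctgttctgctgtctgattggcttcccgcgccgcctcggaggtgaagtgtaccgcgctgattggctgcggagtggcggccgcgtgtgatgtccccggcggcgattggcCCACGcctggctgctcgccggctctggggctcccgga
On both strands, the whole element occurred in 9 of the 25 promoters found for 24 of the 30 list members (36%), against 0.119% of 32851 promoters in the table. Of the 7 genes that fell, 4 had a promoter in the table. Of these Hspa5 held the whole element in this form, at -65 from the start. Hspa5, Dnajb11 and Sdf2l1 held CCACG and Pdia3 did not. For this element only that form and CCACG alone were searched. In Dnajb11 the letters ATTGG, which read CCAAT on the other strand, stand just before CCACG, an arrangement that was not searched. CCACG alone occurred in 32.8% of all promoters and 84.0% of those of the list. The E-box CACGTG, on which clock proteins act, occurred in 7.15% of all promoters, 20.0% of those of the list and in 0 of the 4, the nuclear receptor motif AGGTCA in 16.3%, 16.0% and 1 of the 4, and the cyclic AMP motif TGACG in 20.8%, 32% and 3 of the 4. The search for the ER stress response element was added after the expression values were seen, and these matches describe letters, not binding.

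The cytosolic heat shock list gave 2 lower and 0 higher of 20, against 1.18% of all genes lower, the small heat shock protein Hspb1 and the co-chaperone Stip1 (-0.34). Hspb1 read 8.81, 8.82 and 8.59 on the high fat diet, against 9.96, 9.77 and 9.49 on chow (difference -0.997, SE 0.20, adjusted p = 0.00535), with no overlap. Stip1 was lost without chow replicate 1 (adjusted p = 0.0631), and 1 member was called without any 1 of the ZT16 arrays. Ribosomal proteins gave 1 lower of 34, Rpsa (-0.48, SE 0.11), against 1.18% of all genes lower. Of the 34 differences 32 were below 0 (6104 of all 13956 genes were), with a median of -0.17. Rpsa was lost without high fat diet replicate 1, high fat diet replicate 2 or chow replicate 2. Ribosome biogenesis gave 2 lower of 35, Bop1 (-0.40) and Mybbp1a (-0.38), against 1.18% of all genes lower. Without chow replicate 1 both were lost (adjusted p = 0.0541 for Bop1 and 0.0574 for Mybbp1a). In this list 0 members were called without high fat diet replicate 2, high fat diet replicate 3 or chow replicate 2. No member of the proteasome or oxidative phosphorylation lists was called.

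Immune genes gave few calls. Of 25 interferon-stimulated genes 2 were higher, against 1.05% of all genes, and 0 lower. These were Ifit1 (0.73, SE 0.18), which binds foreign RNA, and the antiviral enzyme Rsad2 (0.80, SE 0.20). Ifit1 read 8.08, 8.27 and 8.27 on the high fat diet, against 7.59, 7.23 and 7.60 on chow. Neither was called without high fat diet replicate 2, high fat diet replicate 3 or chow replicate 2. The acute phase list gave 1 higher and 1 lower of 28, against 1.05% and 1.18% of all genes. The interleukin-1 antagonist Il1rn was higher (0.38, lost without chow replicate 1 with an adjusted p of 0.144). The plasma protein Orm1 was lower (-0.40, lost without any 1 of high fat diet replicates 1 and 2 and chow replicates 2 and 3). Markers of Kupffer cells and macrophages gave 0 called of 21, with 17 above 0 and a median of 0.20, and summed to 6295 to 9223 in high fat diet livers and 5693 to 6903 in chow livers. Summed neutrophil markers, 5 of 12 above the filter and with S100a8, Ly6g and Ngp under it, were 535 to 626 on the high fat diet and 336 to 477 on chow, and 0 of the 5 were called. The part of these cells in the immune calls was not tested, and in bulk liver RNA more cells of a type and more RNA per cell cannot be told apart. Markers of T, NK and B cells, stellate cells, endothelium, bile duct, fat tissue, red blood cells, and of muscle, pancreas and gut likewise gave 0 calls at ZT16.

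No core clock gene was called at ZT16, of 16 measured. The activators Arntl (0.38, adjusted p = 0.437) and Clock (0.12, adjusted p = 0.671) overlapped between diets, as did Cry1 (0.17), Cry2 (-0.06), Nr1d1 (-0.10), Nr1d2 (-0.13), Rora (0.10), Nfil3 (0.16), Bhlhe41 (-0.25), Csnk1d (0.09) and Csnk1e (0.13). Ciart, a repressor of the clock, read 6.83, 6.93 and 6.89 on the high fat diet, against 7.82, 7.55 and 7.25 on chow, and did not pass the test (difference -0.66, SE 0.28, adjusted p = 0.286). Samples of the diets were also apart, without a call, in Per2 (-0.29), Per3 (-0.33), Per1 (0.40) and Bhlhe40 (0.38), against 9.64% of all genes wholly above and 8.32% wholly below chow. Among 22 clock output genes Mfsd2a and Insig2 were higher, against 1.05% of all genes, and the membrane protein Tspan4 lower, against 1.18%. Tspan4 (-0.39) was lost without chow replicate 1 with an adjusted p of 0.14. The immediate early, glucocorticoid, one-carbon and NAD, and cell cycle lists gave 0 calls. Of these Myc, a growth regulator, had the largest difference (-1.73, SE 0.56, adjusted p = 0.111), and its chow levels were spread over 9.42, 8.71 and 7.01, against 6.32, 7.11 and 6.53 on the high fat diet.

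The second question was which diet differences belonged to ZT16 and not to the other 5 times. At ZT0, 993 genes were called (7.12%), 470 higher (3.37%) and 523 lower (3.75%). At ZT4 there were 515 (3.69%), 319 higher (2.29%) and 196 lower (1.4%), and at ZT8 108 (0.774%), 39 higher (0.279%) and 69 lower (0.494%). At ZT12 there were 759 (5.44%), 345 higher (2.47%) and 414 lower (2.97%), and at ZT20 285 (2.04%), 173 higher (1.24%) and 112 lower (0.803%). ZT16, with 310, lay between ZT20 and ZT4 in this order. Of the 310 genes called at ZT16, 80 were called with that sign at no other time, 82 at 1 other, 48 at 2 others, 45 at 3 others, 35 at 4 others and 20 at all 5 others. The 20 included Stap1, Apoa4, Gpc1, Cyp2b10, Cyp3a44, Cyp2c55, Csad, Ces2a, Slc13a2, Fabp2 and Bdh1, and 197 of the 310 had the same sign at all 6 times. The 80 include Sdf2l1, Ppp1r3c, Agxt2, Kynu, Stip1 and Bop1, though a gene called at 1 time is not thereby shown to differ from the others. Across the 13956 genes, which are not independent, the diet difference at ZT16 correlated with that at ZT12 at r = 0.657, ZT20 at 0.559, ZT0 at 0.548, ZT4 at 0.510 and ZT8 at 0.258.

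The test of the difference itself, ZT16 minus the mean of the other 5 times, called no gene by limma (0%), while 825 genes (5.91%) had an unadjusted p under 0.05. The smallest adjusted p was 0.154, shared by Manf, Got1 and Cyp4a12a, followed by 0.259 for Elovl3, Rnf125 and 6430548M08Rik among others; these genes were chosen for mention after their values were seen. The difference in Manf at ZT16 minus that at the other times was -0.71 (SE 0.14), with diet differences from ZT0 to ZT20 of -0.11, -0.29, 0.31, -0.59, -0.80 and 0.25. Got1, the cytosolic aspartate aminotransferase, was 0.65 above the other times. At ZT16 it read 12.05, 12.25 and 11.97 on the high fat diet, against 11.63, 11.65 and 11.67 on chow, just short of a call (difference 0.44, SE 0.12, adjusted p = 0.0501).

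Which arrays entered mattered for this test. With array quality weights it called 282 genes above and 90 below the other times, and without the 4 arrays of lowest weight (chow replicate 1 of ZT16, chow replicate 2 of ZT4, and high fat diet replicate 2 and chow replicate 3 of ZT20) it called 21 above and 8 below. All 29 of the latter were among the former. The weights were estimated from the spread of these same arrays around their group means. Both settings thus play down the arrays that deviate most, which favours more calls, and their agreement is not independent support. The 8 below held Manf (-0.84, adjusted p = 0.0164), Hyou1 (-0.77), Hspa5 (-0.51), Tmed3, a cargo receptor of the early secretory pathway (-0.63), and Srprb, a subunit of the receptor that docks ribosomes at the ER (-0.54), with 6430548M08Rik, Elfn1 and Ifnlr1. The 21 above ranged from 0.40 for the angiotensin receptor Agtr1a to 1.14 for Tcp11l2, and included the aldo-keto reductase Akr1c19 (0.61). Manf was also called without ZT12 among the other times (-0.84, adjusted p = 0.00862), without ZT0 (-0.72, adjusted p = 0.0384), and without high fat diet replicate 3 of ZT12 (-0.74, adjusted p = 0.0308). It was not called without ZT4, ZT8 or ZT20, nor when any other 1 of the 36 arrays was left out. ZT12 was the time with the Manf difference nearest to that at ZT16, so leaving it out widens the contrast by construction.

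In chow livers Manf, Hspa5, Hyou1 and Dnajb11 had their highest mean at ZT16. The mean of Manf in high fat diet livers was 10.01, 9.35, 9.43, 8.85, 9.39 and 9.74 from ZT0 to ZT20, against 10.12, 9.64, 9.12, 9.45, 10.19 and 9.49 in chow livers. Chow was thus highest at ZT16, while the high fat diet group was lowest at ZT12 and highest at ZT0. Hspa5 on the high fat diet averaged 12.43, 11.92, 11.90, 11.54, 12.00 and 12.11 at these times, against 12.37, 12.14, 11.70, 11.92, 12.46 and 12.01 on chow. Its difference was below 0 at ZT16, ZT12 (-0.38) and ZT4 (-0.22) and above 0 at ZT0 (0.06), ZT8 (0.20) and ZT20 (0.10). The ZT16 means in chow were the highest of the day for Hyou1 and Dnajb11 as well (10.78 ± 0.23 for Hyou1 and 9.44 ± 0.14 for Dnajb11, SD, n = 3). Sdf2l1 in chow was high at ZT16 (10.14) and ZT0 (10.41), against 8.97 and 10.21 on the high fat diet at those times.

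Over the list of 30, the median diet difference was 0.00 at ZT0, -0.16 at ZT4, 0.06 at ZT8, -0.25 at ZT12, -0.30 at ZT16 and -0.02 at ZT20. The members called lower numbered 7 at ZT16, 6 at ZT12 (2.97% of all genes were lower there) and 1 at ZT4 (1.4%), and 1 was called higher at ZT0 (3.37%) and at ZT20 (1.24%). Relative to the mean of the other 5 times, 26 of the 30 lay below at ZT16, against 6512 of all 13956 genes, and 0 of the 30 were called in that test.

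**Figure D3:**
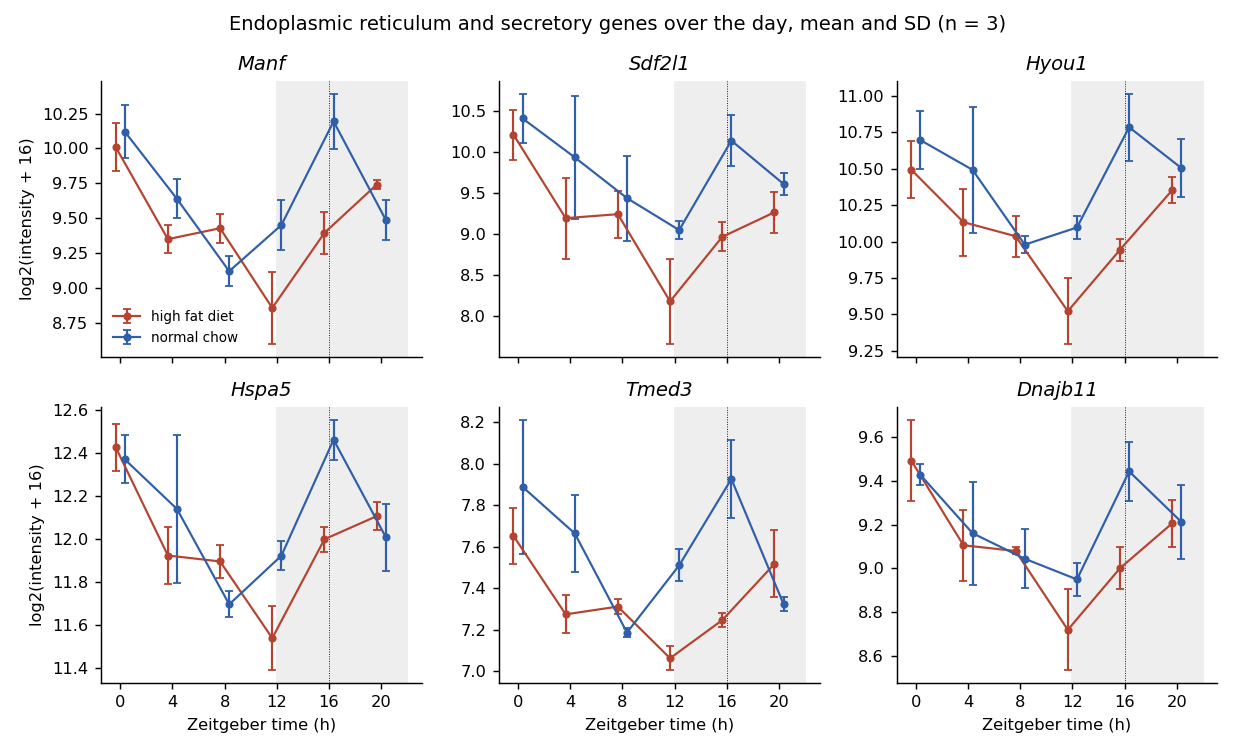
Mean level with SD (n = 3) of 6 ER and secretory pathway genes at the 6 harvest times, high fat diet in red drawn just left of chow in blue, with ZT12 and later shaded grey and ZT16 dotted. At ZT16 the high fat diet mean lies under the chow mean in all 6, with differences from -0.44 in Dnajb11 to -1.17 in Sdf2l1. At ZT20 the high fat diet means of Manf, Tmed3 and Hspa5 lie above those of chow.

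Set against each other time alone, the ZT16 difference was called different in 46 gene and time pairs from 38 genes, 20 of which were also called at ZT16. The times differed widely in this. Against ZT8 there were 28 calls (0.201% of genes), 17 above (0.122%) and 11 below (0.0788%). Against ZT4 there were 10 (0.0717%), 7 above (0.0502%) and 3 below (0.0215%). Against ZT0 there were 5, all below (0.0358%), against ZT20 2, both below (0.0143%), and against ZT12 1, above (0.00717%). No gene was called against 3 or more times, and 8 were called against 2. Leaving out ZT16 arrays moved the total of 46 to between 19 and 68, with 19 without high fat diet replicate 3, 24 without high fat diet replicate 2, 25 without chow replicate 2 and 26 without chow replicate 3. The total was 24 after median centring.

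In 25 of the 46 pairs the ZT16 difference stood above that at the other time. Elovl3, which elongates very long chain fatty acids and follows the clock in liver, had the highest values against ZT4 and ZT8. It was higher on the high fat diet at ZT16 and lower at ZT4 and ZT8. At ZT16 it read 12.29, 12.54 and 12.64 on the high fat diet, against 11.75, 11.94 and 11.91 on chow. Its diet differences were -0.13, -0.78, -0.85, 1.05, 0.62 and 0.31 from ZT0 to ZT20, with calls at ZT4 (adjusted p = 0.00148), ZT8 (adjusted p = 0.00136), ZT12 and ZT16. The difference at ZT16 exceeded that at ZT4 by 1.40 (SE 0.21, adjusted p = 0.00231) and that at ZT8 by 1.48 (SE 0.21, adjusted p = 0.000872). Fpgs, which adds glutamates to folate, was the other gene called at ZT16 (0.48) with a call of the opposite sign elsewhere (-0.29 at ZT4, adjusted p = 0.0444), and the change of 0.77 between these times was called. Insig2 and Mtnr1a, higher at most times, stood above ZT8 by 1.22 (SE 0.20) and 1.46 (SE 0.25), and Atf5 by 0.81 (SE 0.15).

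Cyp4a12a, a fatty acid hydroxylase, was a metabolic gene whose difference at ZT16 was called below that at ZT0 and ZT8. It was not called against ZT4, ZT12 or ZT20, nor by limma against the mean of the other 5 times (adjusted p = 0.154). At ZT16 it read 11.18, 11.26 and 11.33 on the high fat diet, against 12.51, 12.51 and 12.46 on chow, a 2.36-fold fall (SE 0.11 on the log2 scale, adjusted p = 2.91e-08). In high fat diet livers Cyp4a12a averaged 12.04, 11.81, 12.09, 11.54, 11.26 and 11.67 from ZT0 to ZT20, against 12.36, 12.53, 12.46, 12.50, 12.49 and 12.46 in chow livers. The chow means thus stayed within a narrow range while the high fat diet mean was lowest at ZT16. The difference at ZT16 minus that at ZT0 was -0.92 (SE 0.16, adjusted p = 0.0121), and minus that at ZT8 it was -0.87 (SE 0.16, adjusted p = 0.0099). The near-identical Cyp4a12b gave -0.91 and -0.81.

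Clock genes entered through the other times. Per2 had a diet difference of 0.78 at ZT4 and 0.65 at ZT8, against -0.29 at ZT16, a change of -1.07 (SE 0.19, adjusted p = 0.0098) and -0.94 (SE 0.19, adjusted p = 0.0209). Its mean on the high fat diet was 7.62, 7.94, 9.11, 9.04, 8.91 and 8.00 from ZT0 to ZT20, against 7.76, 7.16, 8.46, 8.93, 9.20 and 8.46 on chow, so the highest mean stood at ZT8 on the high fat diet and at ZT16 on chow. Ciart (-2.33) and Per3 (-1.06) lay below ZT4. Nr1d1 (-2.09), Nr1d2 (-1.57) and Dbp (-1.53) lay below ZT0, the time at which Nr1d1 averaged 9.99 ± 0.21 on the high fat diet and 8.00 ± 0.94 on chow (SD, n = 3), against 7.35 ± 0.30 and 7.44 ± 0.38 at ZT16.

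**Figure D4:**
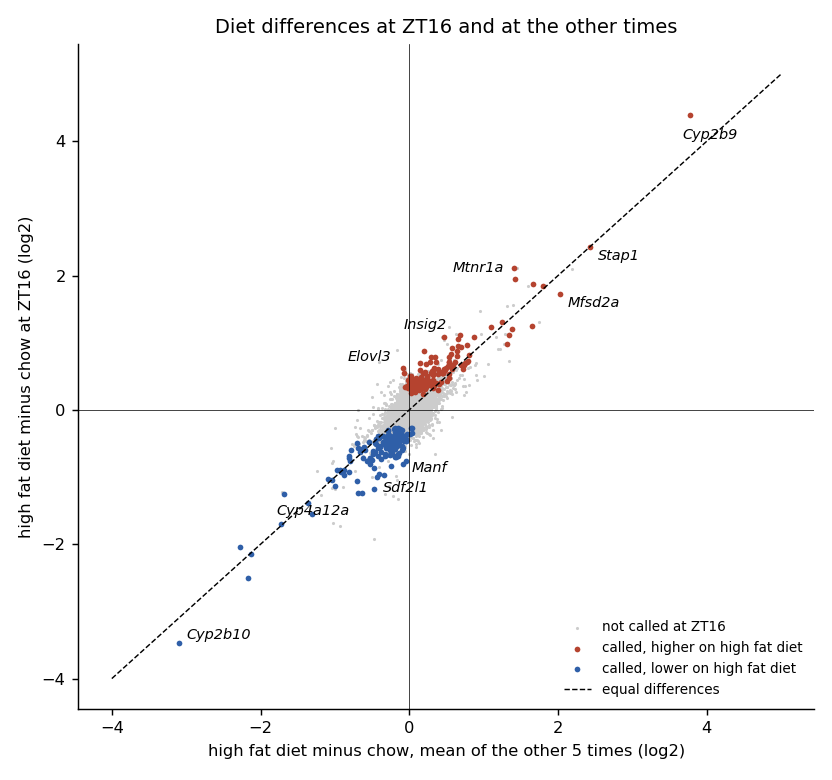
Each gene's diet difference at ZT16 (high fat diet minus chow, log2) against the mean of its differences at the other 5 times, with called genes at ZT16 in colour. Cyp2b9 (4.39) and Cyp2b10 (-3.47) lie far out near the line of equal differences, whereas Manf (-0.80) and Cyp4a12a (-1.24) lie below it and Elovl3 (0.62) above it.

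**Figure D5:**
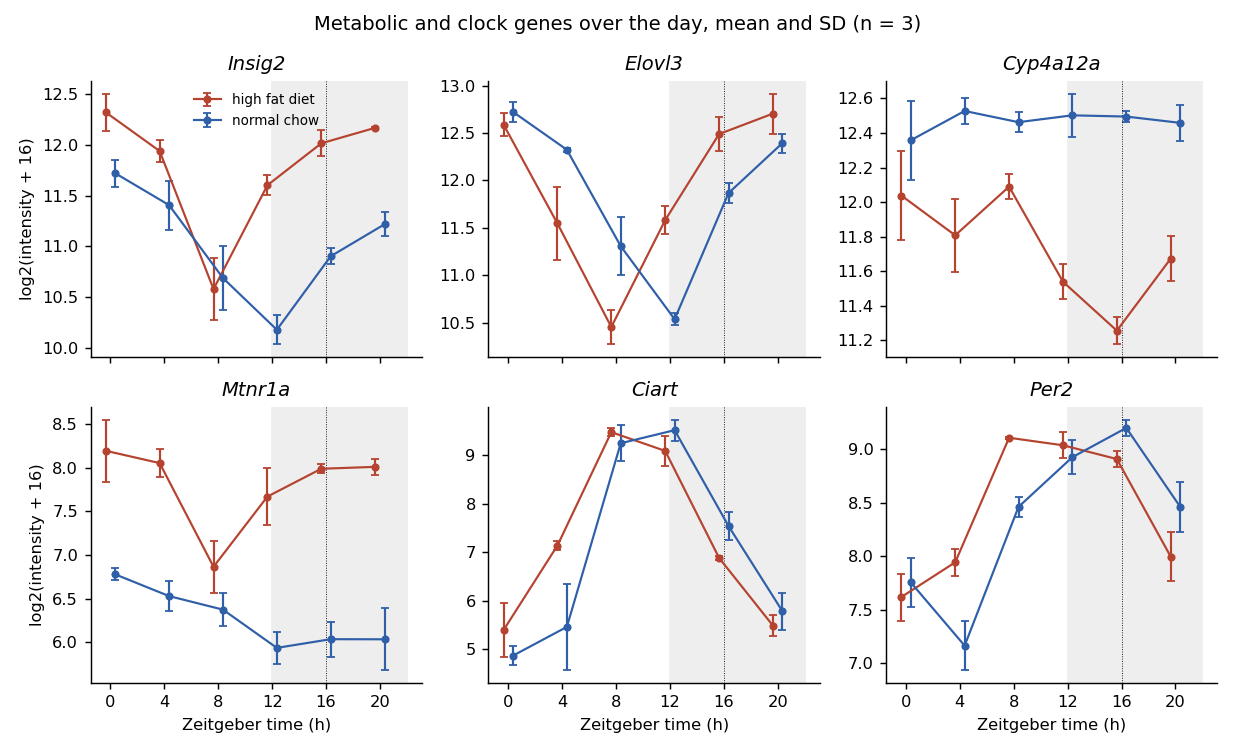
Mean level with SD (n = 3) of Insig2, Elovl3, Cyp4a12a, Mtnr1a, Ciart and Per2 at the 6 harvest times, high fat diet in red drawn just left of chow in blue. At ZT16 the high fat diet means are higher in Insig2, Elovl3 and Mtnr1a and lower in Cyp4a12a (called), while Ciart and Per2 were not called there and part from chow most at ZT4.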

How the data were processed

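Liver RNA of 36 C57BL/6J samples, in 12 groups of 3 given by diet and harvest time in the labels, was measured on Affymetrix whole-transcript gene arrays, 1 array per sample. The deposited values are linear intensities for 35556 probe sets, made by the authors with Affymetrix Expression Console 1.1.1 and PLIER 2.0, per the submitters' processing notes. No source used here gives the background correction or the scaling between arrays. Array medians lay between 75.7 and 95.6. The number of arrays limits the precision.

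Intensities were used without further scaling as log2(intensity + 16). By the platform annotation 21789 probe sets had 1 gene, 1621 had several and 12146 were unlisted. For 99.6% of the single-gene ones the symbol was looked up by entrez identifier. The brightest probe set stood for each of 19938 genes (999 had more than 1), and the 13956 above the 30th percentile of mean intensity (6.11) were tested. limma 3.58.1 in R 4.3.3 fitted 1 mean per diet and time to all 36 arrays, with 24 residual degrees of freedom. Contrasts were high fat diet minus chow at ZT16, the same at each other time, and ZT16 minus the other 5 times together and 1 by 1, called at a Benjamini-Hochberg adjusted p under 0.05 within each. The fit was also run on simulated data with independent noise and 1 spread per gene for all arrays. Such data do not represent arrays of unequal quality.

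The comparison, its 38 gene lists and the tests were chosen with earlier results of these data known. The text names the 12 highest and 12 lowest called differences at ZT16, for each list up to 4 members of smallest p among those called (2 where none passed), and all core clock genes. Other genes named, including the remaining list members and those of the comparisons between times, were chosen after their values were seen. Alternatives covered scaling, filter, offset, probe set choice, array weights, variance prior, thresholds, the replicate block, the arrays in the fit and the other times used.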

Additional observations from a re-analysis of the deposited data

Results flagged for a closer look

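Each result here is a gene whose diet difference at ZT16 differed from that at another harvest time by limma's test of the difference itself (Benjamini-Hochberg adjusted p under 0.05 within each pair of times). Values are the difference at ZT16 minus that at the other time, on the log2 scale, and the genes were chosen by this test after their values were seen.

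Against ZT0, 5 genes lay below: Nr1d1 (-2.09), Nr1d2 (-1.57) and Dbp (-1.53) of the clock and its output, and Cyp4a12a (-0.92) and Cyp4a12b (-0.91). The clock genes had diet differences of 2.00, 1.44 and 1.24 at ZT0 and were not called at ZT16, while the Cyp4a12 pair was called at ZT16 with -1.24 each. Against ZT4, the clock repressors Ciart (-2.33), Per2 (-1.07) and Per3 (-1.06) lay below. Those above ZT4 were Elovl3 (1.40), the transcription factor Rfx4 (0.96), the ubiquitin ligase Rnf125 (0.95), the RNA-binding Cpeb2 (0.80), Asap2 (0.79), Fpgs (0.77) and the histone methyltransferase Kmt5b (0.61). Of these 7, all but Asap2 were also higher on the high fat diet at ZT16, though Cpeb2 was not called there without chow replicate 1.

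ZT8 had the most such genes. Those below it were Ppp1r3b, a glycogen-targeting phosphatase subunit (-1.24), Zfp9 (-1.19), Manf (-1.11), Per2 (-0.94), Cyp4a12a (-0.87), the co-chaperone Bag3 (-0.85), the spermidine synthase Srm (-0.84), Cyp4a12b (-0.81), Tmed3 (-0.81), Ppp1r14b (-0.69) and Rrp12 of ribosome biogenesis (-0.54). Manf, Tmed3, Srm, Zfp9, Ppp1r14b and the Cyp4a12 pair were called lower at ZT16 itself, Zfp9 not without chow replicate 1. Ppp1r3b was not called there (difference 0.02), and its diet difference at ZT8 was 1.26.

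Those above ZT8 were led by lipid and signalling genes: Elovl3 (1.48), Mtnr1a (1.46) and Insig2 (1.22). The mitochondrial protease subunit Clpx stood above it by 1.02, Zc3h6 by 1.02, Rfx4 by 0.89, Rnf125 by 0.87, Hacl1 of fatty acid alpha-oxidation by 0.86, the kinase Dyrk1b by 0.84 and Atf5 by 0.81. The Wnt receptor Fzd6 did so by 0.75, Fbxl20 by 0.69, Zkscan17 by 0.66, Tab2 of inflammatory signalling by 0.65, Gas7 by 0.63, Kynu by 0.53 and the RNA-binding Msi2 by 0.43. Of these 17, Elovl3, Mtnr1a, Insig2, Clpx, Rfx4, Rnf125, Dyrk1b, Atf5, Fbxl20 and Kynu were called higher at ZT16, and the others were not called there.

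The growth factor receptor Fgfr2 was called above ZT12 (0.67), where its diet difference was -0.67, against 0.00 at ZT16. Against ZT20, Manf (-1.05) and Tmed3 (-0.87), both of the secretory pathway, lay below, with diet differences of 0.25 and 0.19 at ZT20.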

How the results depend on the processing

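Quantile normalization, the filters, the offsets, the mean of probe sets and the trended robust variance prior kept the counts of higher (146) and lower (164) genes within 1.5 times, and the test of ZT16 against the other 5 times at 0 calls. Adjustment over all times together, run for the higher and lower counts, kept them within 1.5 times too. Median centring gave 63 higher and 24 calls against single other times (46 otherwise). Array quality weights gave 919 higher, 417 lower, 282 above and 90 below the other 5 times (183 and 65 also called at ZT16), and 2888 calls against single times. Without the 4 arrays of lowest weight these were 282, 163, 21 and 8 (17 and 7), and 247. An adjusted p under 0.01 left 42 higher, 59 lower and 18 against single times, and a 1.5-fold minimum 54 higher and 63 lower, since both call fewer genes by construction. The 6 arrays of ZT16 alone gave 90 higher and 103 lower. Without ZT0 among the other times 3 genes lay above and 3 below (2 and 3 also called at ZT16), and without ZT12 4 above and 2 below (3 and 2). Leaving out 1 of the 36 arrays gave 33 to 178 higher, 63 to 187 lower, 0 to 0 above and 0 to 1 below the other times (0 to 0 and 0 to 1 also called at ZT16), and 19 to 74 against single times. The cause of these movements was not tested. Of 78 called genes in the text's lists, 29 were called in every alternative, 49 were lost in 1 or more and 0 reversed, and of 85 that were not called 23 were in 1 or more alternatives. The labels' replicate numbers gave no consistent sign of pairing the samples. Deviations of same-numbered samples at ZT16 correlated at -0.41 to -0.02, and at -0.41 to 0.35 over all times. With 3 samples per group this check cannot exclude pairing. A replicate block gave 142 higher, 168 lower, 0 above and 0 below the other times and 51 against single times. Dim genes are limited by background, which the offset of 16 compresses.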

Other observations

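Macrophage markers, without a call at ZT16, differed in number of calls between harvest times. Of 21 measured, 10 were called higher on the high fat diet at ZT0 (3.37% of all genes were) and 1 lower (3.75%). At ZT12 2 were called higher (2.47%), against 0 at ZT16, ZT4, ZT8 and ZT20. Their median diet difference was 0.64 at ZT0, 0.15 at ZT4, 0.11 at ZT8, 0.47 at ZT12, 0.20 at ZT16 and 0.12 at ZT20. No macrophage marker was called in the test of ZT16 against the other 5 times, and in that test 18 of the 21 lay below 0, against 6512 of all 13956 genes.

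Some genes at ZT16 separated the diets without passing the test. Over all genes tested, 9.64% lay wholly above and 8.32% wholly below chow. Angptl4, a secreted inhibitor of lipoprotein lipase, read 9.66, 9.94 and 10.05 on the high fat diet, against 9.21, 9.28 and 9.10 on chow (difference 0.69, SE 0.23, adjusted p = 0.137). Acmsd, which diverts tryptophan from NAD synthesis, read 9.16, 9.01 and 9.14 on the high fat diet, against 9.41, 9.95 and 10.32 on chow (difference -0.79, SE 0.25, adjusted p = 0.1), and was called lower without chow replicate 1 (-1.03, adjusted p = 0.0371). The uncharacterised transcript 6430548M08Rik was called at ZT16 alone of the 6 times (difference -0.65, SE 0.10, adjusted p = 0.000323). Rnf125, a ubiquitin ligase, was likewise called at ZT16 alone, at 11.14, 11.41 and 11.48 on the high fat diet and 10.88, 10.67 and 10.81 on chow (difference 0.55, SE 0.13, adjusted p = 0.0141).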
